A study of Mus musculus with 8 samples.

Results

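NRF2, the transcription factor encoded by Nfe2l2, 6 of its standard target genes (Nqo1, Hmox1, Gclc, Gclm, Txnrd1 and Srxn1) and the metallothionein genes Mt1 and Mt2 were followed across 4 states of mouse hepatic stellate cells. The genes were chosen by symbol. All 9 were found among the 14162 genes of the table and all 9 were among the 13150 genes tested. Hepatic stellate cells store vitamin A in the healthy liver and turn into matrix-producing myofibroblasts when activated. RNA sequencing was done on total RNA, with 2 libraries, a and b, in each of 4 groups: activated cells with miR-15a, activated cells with a control microRNA, activated cells with no microRNA named (called activated below) and quiescent cells. The study looked for likely targets of miR-15a. Mice were C57BL/6J and SCID, per the labels, which tie no library to a strain and give no age, no treatment and no way of isolating or activating the cells or of delivering a microRNA. Whether a and b are different animals, different cultures or the same one is not given either. The p-values therefore cover the spread between a and b alone, and that spread may be technical.

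Under resting conditions NRF2 is bound by KEAP1 and sent to the proteasome through a CUL3 ubiquitin ligase. Electrophiles and oxidants modify KEAP1, and NRF2 then enters the nucleus, pairs with a small MAF protein and binds antioxidant response elements. BACH1, a haem-sensing repressor, competes for the same elements. The targets make glutathione, keep thioredoxin and peroxiredoxin reduced, break down haem and reduce quinones. Metallothioneins are small cysteine-rich proteins that hold zinc and copper, and their genes are switched on by the zinc sensor MTF-1 at metal response elements.

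The values are the authors' normalized scores, in which every library holds the same set of values, and no depth can be given. Libraries a and b of a group had log2 scores with a Pearson r of 0.986 to 0.990 across genes. The quiescent libraries carried the transcripts of several liver cell types. The summed score of 13 measured macrophage markers was 13380 and 14664 in miR-15a libraries, 2617 and 2369 in control microRNA libraries, 2017 and 1831 in activated libraries and 140839 and 162220 in quiescent libraries. The sum of 13 endothelial markers was 8216 and 8112 in miR-15a libraries, 266 and 434 in control microRNA libraries, 226 and 99 in activated libraries and 226313 and 156291 in quiescent libraries. The 12 hepatocyte markers summed to 1315 and 1823 in miR-15a libraries, 215 and 1226 in control microRNA libraries, 322 and 433 in activated libraries and 12752 and 10488 in quiescent libraries. No marker of these lists was at 0 in both libraries of a group. Quiescent stellate markers were only partly measured, since Lrat, Gfap, Colec10, Lhx2 and Tcf21 were not among the genes of the table, and the 13 others summed to 5437 and 6240 in miR-15a libraries, 6199 and 6439 in control microRNA libraries, 6805 and 7070 in activated libraries and 19073 and 19878 in quiescent libraries. The 11 myofibroblast markers summed to between 362069 and 532183 in the 3 activated groups and to 3544 and 3949 in quiescent libraries. Col1a2 was at the highest score of the table, 125636, in every library of the 3 activated groups. Acta2 and Lox were at it in some, so these sums are capped. The gap between the quiescent endothelial sums came largely from Stab2, at 125636 and 58193. Xist, which only female cells express strongly, was at 3373 in both miR-15a libraries, 3373 and 5027 with the control microRNA, 169 and 21 in activated libraries and 8724 in both quiescent libraries. The Y-linked Ddx3y was at 1046 and 1006 in miR-15a libraries, 1282 and 1268 in control microRNA libraries, 2606 and 2570 in activated libraries and 44 and 40 in quiescent libraries. Quiescent and activated libraries therefore differed in the sex of their animals, from each other and from both microRNA groups. In comparisons of these groups a difference between cell states cannot be told apart from a difference between animals. The miR-15a and control microRNA libraries lay nearer to each other in both genes, and whether they came from the same animals is not given.

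The genes lie on 5 chromosomes (GRCm38, GENCODE M21). Nfe2l2 spans chr2:75675513-75704641 on the minus strand, Srxn1 chr2:152105516-152111376 on the plus strand, Gclm chr3:122245557-122270732 on the plus strand, Gclc chr9:77754535-77794485 on the plus strand and Txnrd1 chr10:82833951-82897712 on the plus strand. Chromosome 8 holds Nqo1 at 107388225 to 107403206 on the minus strand, Hmox1 at 75093621 to 75100589 on the plus strand, and the neighbours Mt2 at 94172664 to 94173568 and Mt1 at 94179082 to 94180327, both on the plus strand and 5513 bases apart. The Mt1 and Mt2 transcripts shared no stretch of 80 bases, the read length, so reads should separate this pair.

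The promoters of the metallothionein genes and of Srxn1 are shown as examples with several metal or antioxidant motifs, the elements that MTF-1 and NRF2 are known to bind. Promoters are RefSeq windows on GRCm38.p6, from 250 bases before to 50 after the start. Capitals mark antioxidant motifs (TGACNNNGC or TGAGNNNGC) and metal response motifs (TGCACNC or TGCGCNC), each searched on both strands.
Mt2, chr8:94172368-94172667, plus strand: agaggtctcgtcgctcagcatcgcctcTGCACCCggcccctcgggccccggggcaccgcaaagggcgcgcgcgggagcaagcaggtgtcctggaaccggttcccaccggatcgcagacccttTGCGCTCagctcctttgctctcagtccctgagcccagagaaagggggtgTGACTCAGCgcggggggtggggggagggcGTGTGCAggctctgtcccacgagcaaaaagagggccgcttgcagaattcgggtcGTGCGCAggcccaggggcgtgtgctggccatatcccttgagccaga
Mt1, chr8:94178839-94179138, plus strand: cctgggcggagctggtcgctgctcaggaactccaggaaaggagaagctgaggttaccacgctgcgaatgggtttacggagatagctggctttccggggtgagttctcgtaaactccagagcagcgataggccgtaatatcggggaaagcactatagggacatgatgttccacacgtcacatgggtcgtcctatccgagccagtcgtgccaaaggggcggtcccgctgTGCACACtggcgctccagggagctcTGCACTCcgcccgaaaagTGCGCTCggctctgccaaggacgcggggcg
Srxn1, chr2:152105274-152105573, plus strand: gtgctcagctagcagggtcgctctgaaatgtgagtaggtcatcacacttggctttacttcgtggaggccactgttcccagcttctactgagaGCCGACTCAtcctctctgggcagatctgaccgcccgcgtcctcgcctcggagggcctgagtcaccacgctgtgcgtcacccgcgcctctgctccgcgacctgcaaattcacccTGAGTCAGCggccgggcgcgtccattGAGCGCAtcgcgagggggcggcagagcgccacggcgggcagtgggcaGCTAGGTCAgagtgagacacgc
Mt2 held 4 metal motifs and 1 antioxidant motif, which lies 79 to 71 bases before the start. Mt1 held 3 metal motifs and no antioxidant motif. Srxn1 held 3 antioxidant motifs and 1 metal motif. The Mt2 antioxidant motif and the Srxn1 one at 45 to 37 bases before the start each contain the AP-1 motif TGACTCA, on the plus strand in Mt2 and on the minus strand in Srxn1.

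Shorter windows around the antioxidant motif, which alone is in capitals, are given for 3 other genes, since each has a motif at a different distance from its start.
Gclm, chr3:122245397-122245457, plus strand: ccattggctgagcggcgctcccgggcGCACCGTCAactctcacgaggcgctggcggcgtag
Txnrd1, chr10:82859088-82859148, plus strand: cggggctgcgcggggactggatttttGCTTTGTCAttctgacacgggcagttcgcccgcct
Nfe2l2, chr2:75704869-75704913, minus strand: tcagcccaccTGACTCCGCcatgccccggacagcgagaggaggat
The Gclm motif overlaps 1 of 3 metal motifs of that promoter. The Txnrd1 motif lies in 1 of 3 promoter windows annotated for that gene. The Nqo1 window held neither motif. RefSeq entries were matched for 7 of the 9 genes, and not for Hmox1 and Gclc. Of these 7 genes, which have 9 windows, 5 held an antioxidant motif and 4 a metal motif in at least 1 window. The shares that follow are per window and not per gene. Among 32851 promoter windows of the same length, 27.8% held an antioxidant motif, 25.7% a metal motif, 1.97% at least 3 metal motifs and 5.2% the AP-1 motif. A match of letters is a description and not a site of binding.

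The microRNA itself is shown because its seed largely sets which transcripts it can pair with. Bases 2 to 8, the seed, are in capitals, and the matching site is TGCTGCT.
miR-15a-5p, chr14:61632075-61632096, minus strand: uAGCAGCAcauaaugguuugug
Of the 9 genes 2 held the site in their longest annotated 3′ UTR, and over all genes with an annotated 3′ UTR 2994 of 12534 (23.9%) did. The sites are shown with their flanks and with the site in capitals.
Gclm, chr3:122267153-122267159, plus strand: tctcagtgtgtTGCTGCTcagttggactc
Mt1, chr8:94180104-94180110, plus strand: cctttctaggcTGCTGCTcctgctgtccc
The Gclm site lies in exon 7 of 7, in 1 of 5 coding transcripts, and a further site lies in the same 3′ UTR. The Mt1 site lies in the 3′ UTR of 1 transcript and in the coding sequence of the other 2. Both genes were higher with miR-15a than with the control microRNA, as given below.

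Activation was described by setting activated against quiescent libraries. All of the targets but Nqo1 were lower in activated libraries, as were Nfe2l2 and both metallothionein genes. Of the 9 genes 8 fell, none rose and 1 did not pass, with a median log2 fold change of -2.63, against a median of 0.21 over all tested genes. Calls were common across the table, since 79.5% of all genes were called, 45.4% higher and 34.1% lower. Calls rest on limma with Benjamini-Hochberg adjustment over the 13150 genes and an adjusted p below 0.05, and fold changes are on the log2(score + 5) scale with their standard errors. With median-ratio scaling, which moved the median of all genes by -0.27, 4775 genes were higher and 5414 lower, against 5968 and 4483 with the deposited scores, and all 9 genes were then lower, including Nqo1 (-0.32, adjusted p = 0.0091).

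**Figure D1:**
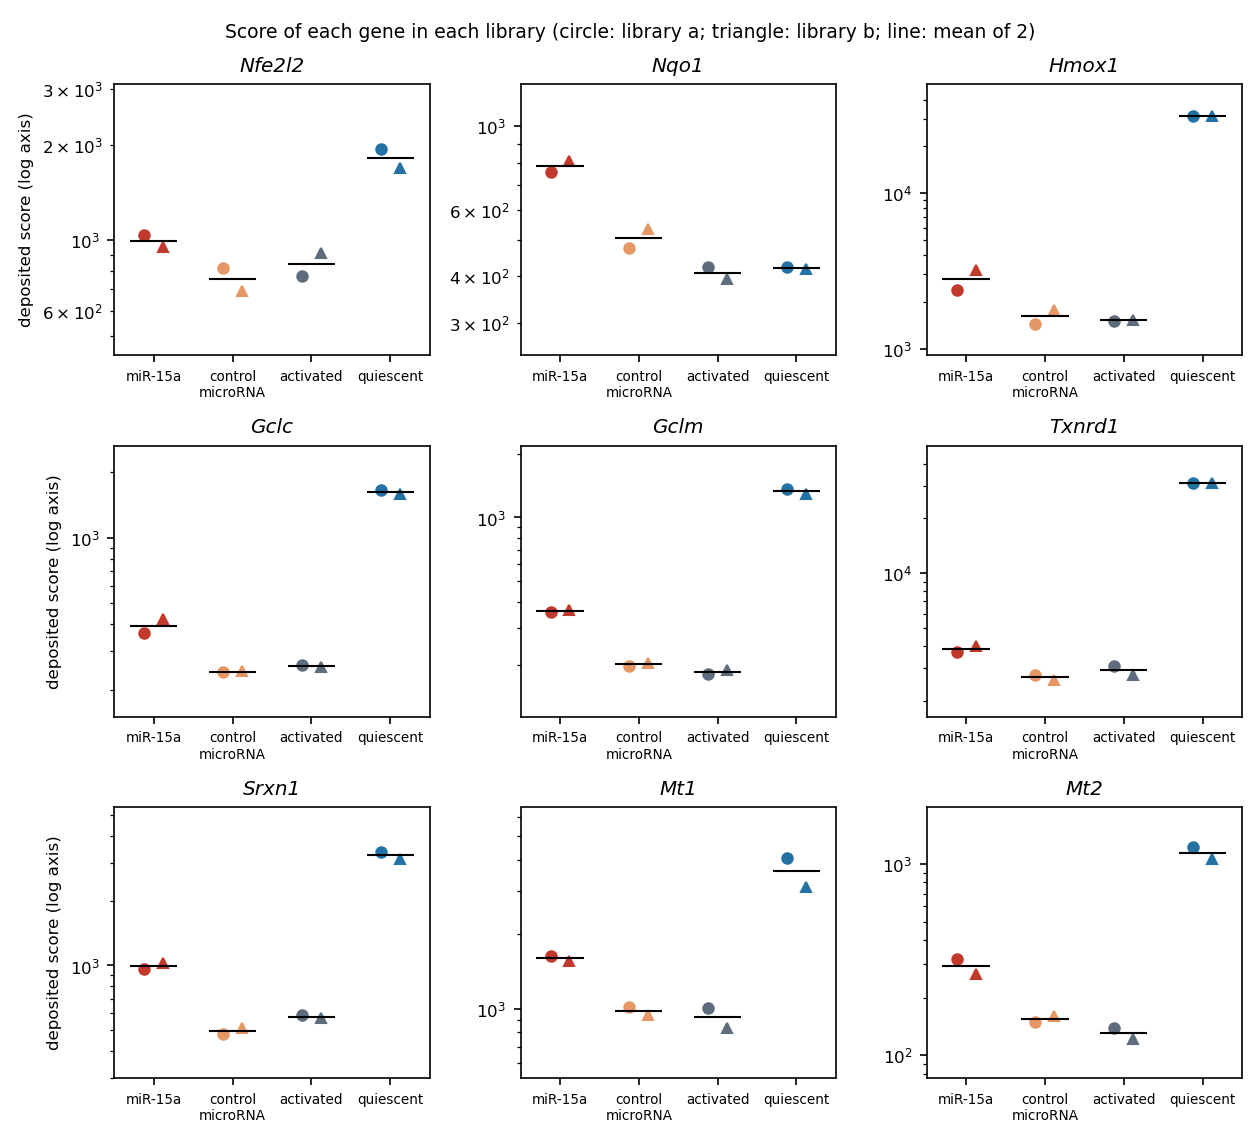
Normalized score of each gene in every library (log axis), by group; each point is 1 library. In every panel but that of Nqo1 the quiescent libraries stood highest and the miR-15a libraries next, and in the Nqo1 panel the miR-15a libraries stood highest.

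Nfe2l2, the regulator, had scores of 774 and 912 in activated libraries, against 1936 and 1694 in quiescent libraries. It stayed readily measured in activated cells, at 46.45% of its quiescent mean. The difference was -1.10 ± 0.12 (adjusted p = 6.4e-05). This was the smallest fall among the 8 genes that fell.

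Gclc and Gclm encode the catalytic and the modifier subunit of glutamate-cysteine ligase, the enzyme that limits glutathione synthesis. Gclc was at 259 and 254 in activated libraries and at 1648 and 1590 in quiescent libraries, a difference of -2.63 ± 0.09 (adjusted p = 9.1e-08). Gclm was at 182 and 189 in activated libraries and at 1363 and 1296 in quiescent libraries, a difference of -2.81 ± 0.07 (adjusted p = 2.8e-08). Both subunits thus stood at like fractions of their quiescent means, 15.84% for Gclc and 13.95% for Gclm.

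Txnrd1, cytosolic thioredoxin reductase, was at 3112 and 2758 in activated libraries and at 31224 in both quiescent libraries (-3.41 ± 0.08, adjusted p = 1.6e-08). Srxn1, sulfiredoxin, which restores over-oxidized peroxiredoxins, was at 590 and 570 in activated libraries and at 3374 and 3112 in quiescent libraries (-2.47 ± 0.07, adjusted p = 4.8e-08). Hmox1, haem oxygenase 1, which opens haem and frees its iron, was at 1515 and 1540 in activated libraries and at 31224 in both quiescent libraries (-4.35 ± 0.14, adjusted p = 9.1e-08). Hmox1 fell furthest of the 9 genes, to 4.89% of its quiescent mean. The score of 31224 is a step of the normalization that 6 genes share in each library, with the next steps at 24105 and 31230, so the tie of both quiescent libraries is not a measure of their spread and these standard errors may be too small.

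Nqo1, a quinone reductase and the most used reporter gene of NRF2 activity, went its own way. Its scores were 422 and 394 in activated libraries and 422 and 418 in quiescent libraries. The groups overlapped, and the difference of -0.04 ± 0.08 did not pass (adjusted p = 0.65).

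The metallothionein genes fell with the others. Mt1 was at 1006 and 834 in activated libraries and at 4088 and 3113 in quiescent libraries (-1.96 ± 0.14, adjusted p = 5.7e-06). Mt2 was at 139 and 121 in activated libraries and at 1234 and 1056 in quiescent libraries (-3.09 ± 0.13, adjusted p = 3.1e-07). Mt1 kept 25.6% and Mt2 11.4% of the quiescent mean. As scores per kilobase of annotated exon, Mt1 stood above Mt2 in each group, at 738.4 against 221.1 in activated libraries and 2890 against 1947 in quiescent libraries.

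Markers of other liver cells fell in the same libraries. Macrophage markers kept 1.27% of their quiescent sum in activated libraries, endothelial markers 0.0849% and hepatocyte markers 3.25%, and all 13, 13 and 12 of them were called lower. Alb holds most of the quiescent hepatocyte sum, and the 11 other hepatocyte markers kept 6.57%, which is above the 4.89% of Hmox1. Of the measured quiescent stellate markers 4 were called higher and 9 lower. Their sum kept 35.6%, most of it from Nes, which rose, and the 12 others kept 10.8%. Reln, Colec11 and Vipr1, all markers of quiescent stellate cells, kept 0.219%, 0.158% and 0.288%. All 11 myofibroblast markers were called higher. Liver macrophages are known to express Hmox1 strongly. The part of other cell types in these differences was not tested, and in bulk RNA fewer cells of a type and less RNA per cell cannot be told apart.

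**Figure D2:**
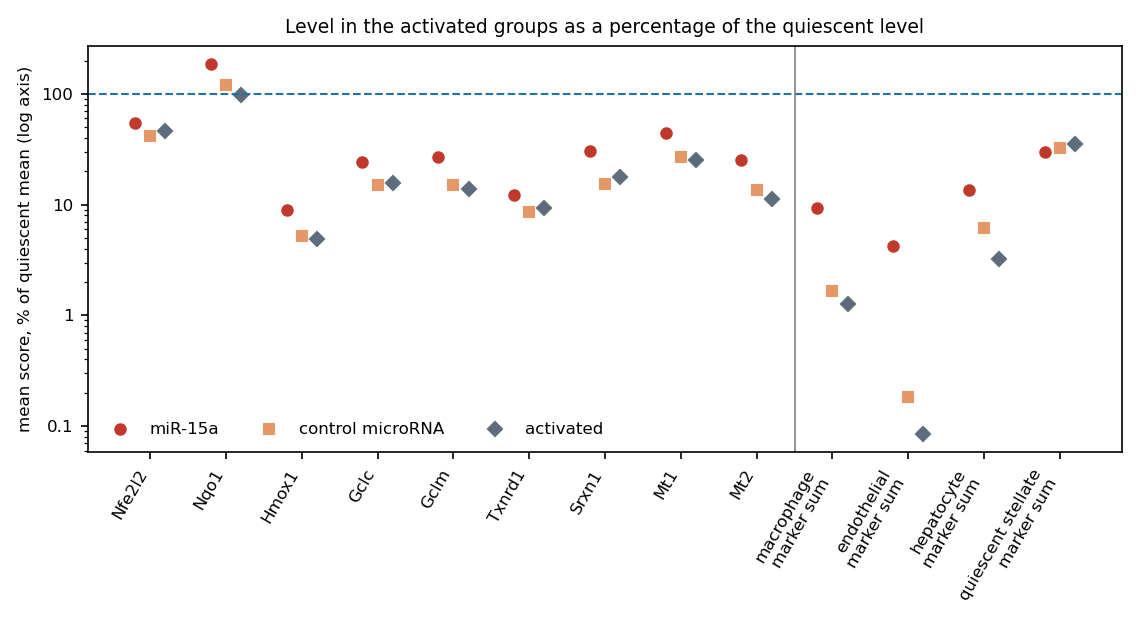
Mean score as a percent of the quiescent mean (log axis), for the 9 genes and for the summed scores of 4 marker lists, in the 3 activated groups; the dashed line marks 100%. In activated libraries Hmox1 was at 4.89%, above the hepatocyte sum at 3.25%. With miR-15a the hepatocyte sum, at 13.5%, and the macrophage sum, at 9.25%, lay above Hmox1 at 8.95%, and with the control microRNA the hepatocyte sum, at 6.20%, lay above Hmox1 at 5.16%.

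The effect of miR-15a was addressed by setting it against the control microRNA, both in activated cells. All 9 genes were called higher with miR-15a. The median log2 fold change was 0.70, against -0.07 over all tested genes. Of all genes 29.9% were called, 14.4% higher and 15.4% lower. With median-ratio scaling 2311 genes were higher and 1584 lower, against 1897 and 2029 with the deposited scores, and the 9 genes were higher under both.

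Among the targets, Srxn1 rose most. It was at 966 and 1024 with miR-15a and at 480 and 514 with the control microRNA (0.99 ± 0.07, adjusted p = 7.0e-05). Gclm was at 357 and 364 with miR-15a and at 199 and 205 with the control microRNA (0.82 ± 0.07, adjusted p = 2.1e-04). Gclc was at 364 and 424 with miR-15a and at 240 and 244 with the control microRNA (0.69 ± 0.09, adjusted p = 0.0012). Both subunits of the glutathione-making ligase were therefore higher.

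Nqo1 was at 757 and 808 with miR-15a and at 476 and 533 with the control microRNA (0.63 ± 0.08, adjusted p = 0.0014). Hmox1 was at 2385 and 3203 with miR-15a and at 1451 and 1772 with the control microRNA (0.78 ± 0.14, adjusted p = 0.0064). Txnrd1 was at 3682 and 3994 with miR-15a and at 2758 and 2605 with the control microRNA (0.52 ± 0.08, adjusted p = 0.0026). Hmox1 had the widest spread between the miR-15a libraries, 2794 ± 578 (mean ± SD, n = 2), and Txnrd1 the smallest rise of the 6 targets.

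The metallothionein genes rose as well. Mt2 was at 319 and 266 with miR-15a and at 149 and 161 with the control microRNA (0.89 ± 0.13, adjusted p = 0.0024). Mt1 was at 1634 and 1560 with miR-15a and at 1011 and 946 with the control microRNA (0.70 ± 0.14, adjusted p = 0.0085). The call of Mt1 was lost without miR-15a library a (0.67, adjusted p = 0.0502).

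Nfe2l2 had the smallest difference, at 1040 and 952 with miR-15a and at 816 and 694 with the control microRNA (0.40 ± 0.12, adjusted p = 0.038). Its call was lost without miR-15a library a (0.34, adjusted p = 0.17) or b (0.46, adjusted p = 0.082), without control microRNA library b (0.28, adjusted p = 0.18) and without quiescent library a or b (adjusted p = 0.051 for each). Each of the 6 targets had a larger fold change than Nfe2l2, a difference that was not tested.

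Markers of other liver cells were higher with miR-15a in the same libraries. All 13 macrophage markers, 12 of 13 endothelial markers and 2 of 12 hepatocyte markers were called higher. Stellate cell markers differed too. Of 13 quiescent stellate markers 4 were called higher, 3 lower and 6 did not pass. Of 11 myofibroblast markers none was called higher, 4 were called lower and 7 did not pass. The summed macrophage markers stood at 9.25% of the quiescent sum with miR-15a and at 1.65% with the control microRNA. The endothelial ones stood at 4.27% with miR-15a and at 0.183% with the control microRNA, and the hepatocyte ones at 13.5% and 6.20%. That 6.20% is the mean of unlike libraries, with sums of 215 and 1226 and Alb at 48 and 640. The miR-15a hepatocyte sums were 1315 and 1823. Clec4f, a lectin of liver macrophages, was at 672 and 813 with miR-15a and at 10 and 22 with the control microRNA. On the same scale Gclc stood at 24.3% with miR-15a and at 14.9% with the control microRNA, Srxn1 at 30.7% with miR-15a and at 15.3% with the control microRNA, and Hmox1 at 8.95% with miR-15a and at 5.16% with the control microRNA. Nqo1 stood at 186% with miR-15a, above its quiescent level, and at 120% with the control microRNA. The part of other cell types in the rise was not tested.

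Against activated libraries, 8 of the 9 genes were called higher with miR-15a and none was called lower. The median was 0.80, against -0.10 over all genes, of which 38.4% were called, 16.8% higher and 21.6% lower. With median-ratio scaling, which moved the median of all genes by 0.14, 3113 genes were higher and 1644 lower, against 2204 and 2841. Mt2 had the largest difference (1.14 ± 0.13, adjusted p = 5.6e-04), followed by Gclm (0.94 ± 0.07, adjusted p = 7.2e-05) and Nqo1 (0.93 ± 0.08, adjusted p = 1.5e-04). Nqo1 was at 757 and 808 with miR-15a and at 422 and 394 in activated libraries. The other called genes were Hmox1 (0.85), Mt1 (0.80), Srxn1 (0.77), Gclc (0.61) and Txnrd1 (0.39), with adjusted p-values up to 0.0068. Nfe2l2, at 1040 and 952 with miR-15a and 774 and 912 in activated libraries, did not pass (0.24 ± 0.12, adjusted p = 0.14). Under median-ratio scaling it did (0.39, adjusted p = 0.030).

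The control microRNA was also set against activated libraries, groups whose Xist and Ddx3y levels differed as given above. None of the 9 genes was called by limma, 2 (Nqo1 and Srxn1) had an unadjusted p under 0.05, and the median was 0.07, against -0.03 over all genes. Of all genes 13.8% were called, 7.18% higher and 6.61% lower, and with median-ratio scaling 1371 were higher and 494 lower, against 944 and 869. Nqo1 was nearest to a call, at 476 and 533 with the control microRNA and 422 and 394 in activated libraries (0.30 ± 0.08, adjusted p = 0.0502). It passed under 4 other settings, with an adjusted p between 0.025 and 0.048, and without control microRNA library a (adjusted p = 0.039). Srxn1 was lower at 480 and 514 with the control microRNA, against 590 and 570 in activated libraries, and did not pass (-0.22 ± 0.07, adjusted p = 0.074). The groups overlapped for Nfe2l2, Hmox1, Txnrd1 and Mt1. The 2 comparisons of miR-15a share their miR-15a libraries, so they are not separate tests.

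**Figure D3:**
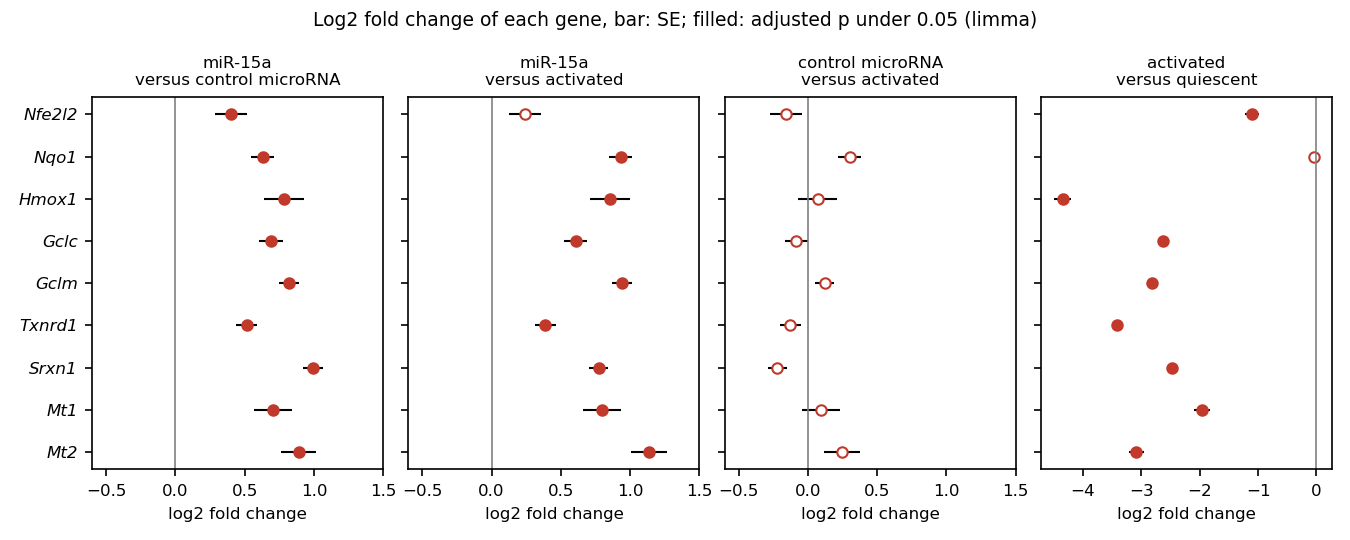
Log2 fold change of each gene on the log2(score + 5) scale with its standard error, in 4 comparisons; filled points passed an adjusted p of 0.05, and the panel of activated against quiescent has a wider axis. Every gene lay above 0 with miR-15a against the control microRNA, from 0.40 for Nfe2l2 to 0.99 for Srxn1, while none passed between the control microRNA and activated libraries.

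Set against quiescent libraries, miR-15a libraries had 8 of the genes lower and Nqo1 higher, where 71.5% of all genes were called, 37.1% higher and 34.4% lower. With median-ratio scaling, which moved the median of all genes by -0.12, the genes called higher were 4375 and those called lower 5049, against 4883 and 4525. Hmox1 (-3.50) and Txnrd1 (-3.02) stayed furthest below the quiescent level and Nfe2l2 (-0.86) nearest to it. Nqo1 was at 757 and 808 with miR-15a, against 422 and 418 in quiescent libraries (0.89 ± 0.08, adjusted p = 3.4e-05). With the control microRNA 8 genes were again lower and Nqo1 higher, where 73.7% of all genes were called, 40.7% higher and 33% lower, and median-ratio scaling, with a shift of -0.17, gave 4575 and 5025 in place of 5356 and 4340. Here Nqo1 was at 476 and 533 with the control microRNA and at 422 and 418 in quiescent libraries (0.26 ± 0.08, adjusted p = 0.021). That call was lost with median-ratio scaling (adjusted p = 0.52) and without control microRNA library b (0.18, adjusted p = 0.11), quiescent library a (adjusted p = 0.068) or quiescent library b (adjusted p = 0.079).

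In the order of group means, quiescent libraries stood first and miR-15a libraries second for 8 of the 9 genes. Both of these steps passed for 7 of the 8, the exception being Nfe2l2, whose means of 996 ± 62.2 with miR-15a and 843 ± 97.6 in activated libraries (SD, n = 2 each) did not differ past the threshold. For these 8 genes the control microRNA and activated groups came last and did not differ past the threshold, so they could not be ranked. Nqo1 alone ran from miR-15a, at 782.5 ± 36.1, through the control microRNA, at 504.5 ± 40.3, to quiescent libraries at 420 ± 2.83 and activated libraries at 408 ± 19.8. Its last 2 neighbours did not differ past the threshold. Over the 8 libraries, Pearson's r of log2(score + 5) lay between 0.95 and 0.997 for pairs of the 8 other genes and between -0.321 and -0.043 for pairs that include Nqo1. These values describe mainly the gap between quiescent libraries and the rest.

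The genes whose profile was most like that of a target were found by Pearson's r of log2(score + 5) over the same 8 libraries, among 10056 genes. Hmox1 was most like Bach1 (0.9992), which encodes the repressor of Hmox1, and Pdlim4 (0.999). Gclm was most like Rnf220 (0.9996) and Cd82 (0.9993), and Gclc most like Hpse (0.9994) and Ier3 (0.9992). Txnrd1 was most like Tmem56 (0.9992) and Tbc1d22a (0.9988), and Srxn1 most like Slc43a3 (0.9987) and Rnf114 (0.9986). Likeness was lower for Nqo1, where Trappc3 (0.9795) and Mvb12a (0.968) came first. Nfe2l2 was most like Lrrn3 (0.9944), Mt1 most like Cklf (0.9933) and Sowahc (0.9928), and Mt2 most like Tbc1d8 (0.9978) and Papd5 (0.9975). These values also rest mainly on the gap between quiescent libraries and the rest, and they say nothing of shared control.

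The genes that control NRF2 moved in both directions. Of 12 tested 5 were higher and 7 lower in activated than in quiescent libraries, with a median of -0.58 against 0.21 over all genes. Of all tested genes 45.4% were higher and 34.1% lower there, and these shares apply beside each list below. With miR-15a against the control microRNA the shares were 14.4% higher and 15.4% lower. Bach1, the repressor, was at 278 and 260 in activated libraries and at 5561 in both quiescent libraries (-4.35, adjusted p = 2.6e-08). Sqstm1 encodes the autophagy receptor that draws KEAP1 away from NRF2 and is itself a target. It was at 5343 and 5561 in activated libraries and at 58193 in both quiescent libraries (-3.42, adjusted p = 5.0e-09). The quiescent libraries tied for Bach1 and for Sqstm1, as for Hmox1 and Txnrd1, so these 2 p-values may be too small. Keap1 fell by 0.86 on the log2 scale, and the small MAF partners Mafg (-1.76), Mafk (-1.32) and Maff (-0.60) also fell. The ligase scaffold Cul3 (0.86) and its partner Rbx1 (0.66) rose, as did Btrc (1.27), which recognises NRF2 for another ubiquitin ligase, the related factor Nfe2l1 (1.22) and Dpp3 (1.08), which binds KEAP1. Gsk3b, the kinase that marks NRF2 for that second route, fell by 0.56 (adjusted p = 0.034).

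With miR-15a against the control microRNA, 4 of the 12 control genes rose, 2 fell and 6 did not pass, with a median of 0.09 against -0.07. Maff was at 1977 and 2108 with miR-15a and at 1076 and 956 with the control microRNA (1.01, adjusted p = 7.5e-05). Bach1 was at 457 and 568 with miR-15a and at 256 and 282 with the control microRNA (0.91, adjusted p = 9.4e-04). Sqstm1 was at 9198 in both miR-15a libraries, again a tie, and at 5343 and 5027 with the control microRNA (0.83, adjusted p = 6.2e-05). Repressor and partner transcripts thus both stood higher, and Mafk did too (0.56, adjusted p = 0.0025). Keap1 did not pass (-0.03, adjusted p = 0.80), nor did Cul3 (-0.22, adjusted p = 0.13). Gsk3b (-0.74, adjusted p = 0.031) and Nfe2l1 (-0.34, adjusted p = 0.032) fell.

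Glutathione genes beyond the ligase also moved in both directions. Of 21 tested 8 were higher and 11 lower in activated than in quiescent libraries (median -0.54). Abcc3, an exporter of conjugates, was at 24 ± 2.83 in activated libraries and at 2010 ± 73.5 in quiescent libraries (mean ± SD, n = 2 each, difference -6.12). Gsta3, a glutathione transferase, fell by 3.59 on the log2 scale. It was near the floor, at 5 and 0 in activated libraries and at 80 in both quiescent libraries, so the added 5 limits this value. Chac1, which degrades glutathione, rose by 3.57, and Slc7a11, the cystine importer that is also an NRF2 target, rose by 0.96. With miR-15a against the control microRNA 7 rose and 2 fell (median 0.22), including Abcc3 (2.25) and Gsr (0.88), the reductase that regenerates glutathione, at 478.5 ± 2.12 with miR-15a and at 258 ± 2.83 with the control microRNA. Slc7a11 was lower with miR-15a (-0.53, adjusted p = 0.0029), unlike the 6 targets above.

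Of 14 thioredoxin and peroxiredoxin genes 7 were higher and 6 lower in activated libraries (median 0.07), and 8 rose and none fell with miR-15a against the control microRNA (median 0.32). Prdx1, an NRF2 target that removes peroxides, was lower in activated than in quiescent libraries (-1.63). With miR-15a it was higher, at 10504 in both libraries, against a mean of 5331.5 ± 612 with the control microRNA. Prdx4 (1.85) and Prdx2 (1.33) instead rose on activation, and Glrx, a glutaredoxin, rose with miR-15a (0.70). Among 7 genes that supply NADPH, 3 were higher and 4 lower in activated libraries (median -0.25), and 2 rose and 1 fell with miR-15a (median 0.06). Taldo1, transaldolase, was lower in activated than in quiescent libraries (-2.47), and higher with miR-15a, at 3990 ± 252 against 1211.5 ± 29.0 with the control microRNA (1.71). Pgd fell on activation (-2.16). Me1, malic enzyme and an NRF2 target, ran the other way. It was at 2.02 in activated against quiescent libraries and at -0.56 with miR-15a against the control microRNA (adjusted p = 0.036). NRF2 targets were not marked throughout these lists, so no share of targets moving either way can be read from them.

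Haem and iron genes, which act beside Hmox1, were mostly lower in activated libraries. Of 11 tested 1 was higher and 8 were lower in activated than in quiescent libraries (median -0.97), and 5 rose and none fell with miR-15a against the control microRNA (median 0.40). Slc40a1, the iron exporter ferroportin and strongly expressed in liver macrophages, was at 49.5 ± 16.3 in activated libraries and 8459 ± 1045 in quiescent libraries (-7.31). With miR-15a it was at 749 ± 52.3, against 82.5 ± 16.3 with the control microRNA (3.12). Ftl1, ferritin light chain, was at 14426 in both activated libraries and at the ceiling of 125636 in both quiescent libraries. That ceiling is shared by 10 genes in each library, so the log2 difference of -3.12 is limited by it and the fall may be larger. Ftl1 has near-identical copies in the genome, so its reads may be shared. It rose with miR-15a (1.25) with widely spaced libraries, at 33224.5 ± 12905 with miR-15a and at 13494 ± 1318 with the control microRNA. Trf, transferrin, fell on activation (-5.71). The macrophage markers given above moved in the same directions, and their part in these values was not tested.

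Of 14 quinone, carbonyl and aldehyde genes 7 were higher and 5 lower in activated libraries (median 0.27), and 5 rose and 2 fell with miR-15a against the control microRNA (median 0.09). Osgin1, a stress-induced growth inhibitor, was at 28 ± 5.66 in activated and 1182 ± 102 in quiescent libraries (-5.18). Ces1g fell (-2.58) and Ptgr1, which reduces reactive aldehydes, rose (2.92). Ces1g was near the floor, at 2 and 5 in activated and 48 and 42 in quiescent libraries, so the added 5 limits its log2 value. Esd (1.66), an esterase, and Akr1b8 (1.27), an aldo-keto reductase, rose with miR-15a. Akr1b8 was at 1137 ± 185 with miR-15a and at 466 ± 5.66 with the control microRNA.

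For the metallothioneins the surrounding zinc and metal genes were compared. Of 18 tested 8 were higher and 10 lower in activated than in quiescent libraries (median -0.41), and 4 rose and 2 fell with miR-15a against the control microRNA (median 0.12). Slc30a1, the zinc exporter that MTF-1 also switches on, moved in both comparisons the way Mt1 and Mt2 did. It was at 276.5 ± 10.6 in activated and 1400 ± 28.3 in quiescent libraries (-2.32), and at 338 ± 32.5 with miR-15a and at 235.5 ± 0.71 with the control microRNA (0.51, adjusted p = 0.0044). Mtf1 itself fell on activation (-0.79, adjusted p = 0.0067) and did not pass with miR-15a (-0.31, adjusted p = 0.27). Slc39a8, a zinc importer, fell on activation (-5.05), Slc39a13, another importer, rose (2.24), and Slc30a4 rose with miR-15a (0.50).

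Under median-ratio scaling no called list gene named here changed sign in these 2 comparisons. The calls of Nfe2l1 and Me1 with miR-15a against the control microRNA were lost. In activated against quiescent libraries the medians of 2 lists turned from above to below 0, at -0.16 for the thioredoxin and peroxiredoxin genes and -0.0044 for the quinone, carbonyl and aldehyde genes.

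**Figure D4:**
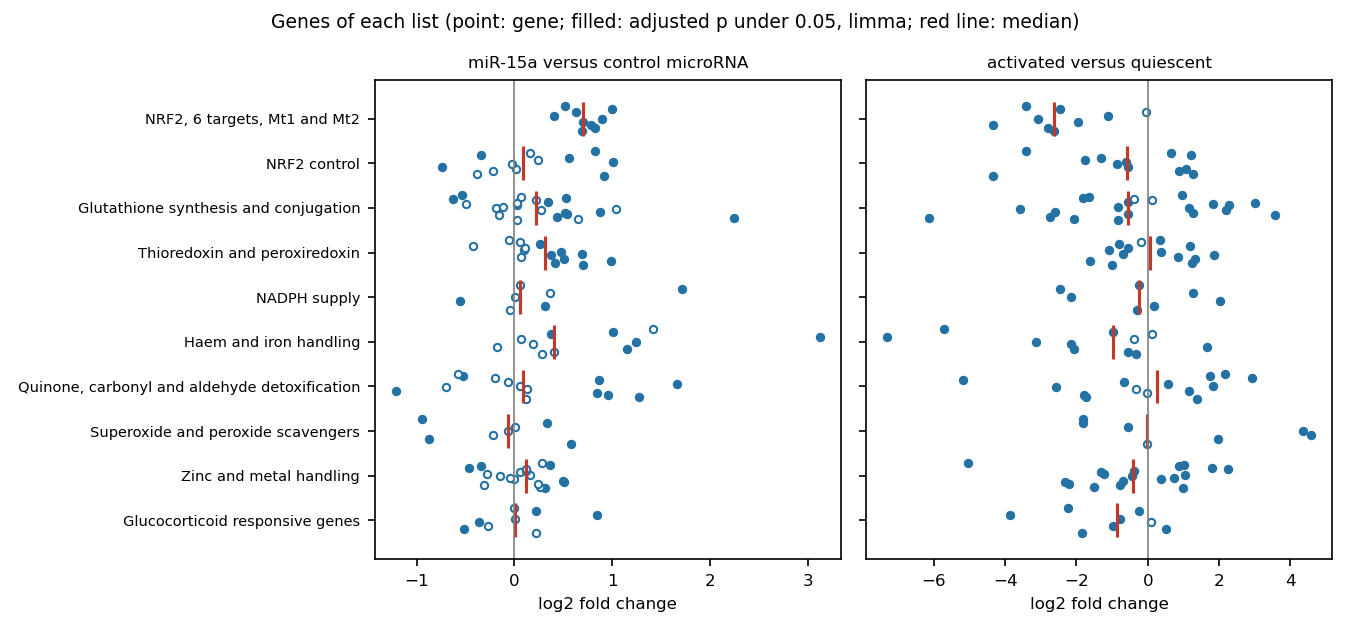
Log2 fold change of every tested gene of the pathway lists, with miR-15a against the control microRNA on the left and activated against quiescent on the right; filled points passed an adjusted p of 0.05 and the red line is each list's median; the panels have different axes. The 9 genes had medians of 0.70 and -2.63, and each of the other lists had a median nearer to 0 on both sides.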

How the data were processed

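RNA was sequenced from 8 libraries, 2 in each of 4 groups taken from the labels. The deposited values are a normalized score for 14162 genes by symbol, and the authors' normalization is not recorded. Every library holds the same 910 distinct values, and totals lie between 10193036 and 10234768, so depth is unknown and no counting interval is given. Per the submitters' processing notes, STAR, Subread and featureCounts were used with mm10, without versions. limma 3.58.1 (R 4.3.3, with its trend option) was run on log2(score + 5) for the 13150 genes scoring 10 or more in 2 or more libraries. It fitted 4 group means over 8 libraries, which leaves 4 residual degrees of freedom, with Benjamini-Hochberg adjustment. Its code was first tested on simulated data. Motifs and seed sites were searched with Python 3.11.15. The genes, pathway lists and markers were chosen with earlier results of these data known. From each pathway list the text names up to 3 called genes with the largest change on activation and up to 2 with miR-15a, every NRF2 control gene, and for each of the 9 genes the 2 most alike with a mean score of at least 50. One gene that this rule selects is not reported here. Slc7a11, Mtf1, Clec4f, Reln, Colec11, Vipr1, Xist and Ddx3y, and the sums without Alb or Nes, were chosen after their values were seen. Differences of library a from b correlated between groups at -0.0666 to 0.0872. These values showed no strong pairing by letter and cannot exclude a weak one. Alternatives covered scaling, filters, pseudocounts, the variance prior, the groups in the fit, a replicate block and each library left out.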

Additional observations from a re-analysis of the deposited data

How the results depend on the processing

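The number of the 9 genes called under the alternatives was 8 or 9 for activated against quiescent, 7 to 9 for miR-15a against the control microRNA, 8 or 9 for miR-15a against activated, 0 or 1 for the control microRNA against activated, 9 for miR-15a against quiescent and 8 or 9 for the control microRNA against quiescent. With each library left out in turn these were 8, 7 to 9, 8, 0 to 1, 9 and 8 to 9. Under the replicate block they were 8, 9, 8, 0, 9 and 9, so the block changed no call of these genes. For the control microRNA against activated, Nqo1 was the 1 gene called with a pseudocount of 20 (adjusted p = 0.045), no filter (0.043), a filter of 50 (0.048) and median-ratio scaling (0.025). With the 2 compared groups alone, 7 genes were called for miR-15a against the control microRNA, and Nfe2l2 (adjusted p = 0.079) and Hmox1 (0.063) were not. Nfe2l2 also lost its call there with no filter (0.059) and with a common variance prior (0.073). Signs turned only for differences that had not passed: Nqo1 in activated against quiescent without activated library b (0.0068; range with each library left out -0.091 to 0.0068), and, in the control microRNA against activated, Hmox1 without control microRNA library b (-0.074; range -0.074 to 0.21) and Mt1 without activated library b (-0.041; range -0.041 to 0.23). The count over all genes for miR-15a against the control microRNA, 3926, was 2296 with the 2 groups alone, 2381 without miR-15a library b and 2385 without control microRNA library b. For miR-15a against activated, 5045, it was 3308 without miR-15a library b, 3253 without activated library a and 2655 without activated library b. For the control microRNA against activated, 1813, it was 436 with the 2 groups alone, 675 without control microRNA library b, 682 without activated library a and 503 without activated library b. The cause was not tested. Fewer libraries leave fewer residual degrees of freedom. The unknown depth and shared steps of high scores limit the precision of Hmox1, Txnrd1, Bach1 and Sqstm1 in quiescent libraries.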

Other observations

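Genes of the superoxide and peroxide scavengers, which protect cells from oxidants, moved in both directions. So did all tested genes, with 45.4% higher and 34.1% lower in activated than in quiescent libraries. Of 7 tested 3 were higher and 3 lower in activated than in quiescent libraries (median log2 fold change -0.02), and 2 rose and 2 fell with miR-15a against the control microRNA (median -0.06, and 0.00029 with median-ratio scaling). The peroxidases of the endoplasmic reticulum Gpx7 and Gpx8 rose on activation. Gpx7 was at 524.5 ± 7.78 in activated and 17.5 ± 4.95 in quiescent libraries (4.57), and Gpx8 at 2130 ± 243 in activated and 99.5 ± 12.0 in quiescent libraries (4.35). The secreted Gpx3 rose on activation (1.98) and fell with miR-15a (-0.87), and the secreted dismutase Sod3 fell with miR-15a, to 134 ± 2.83 against 265.5 ± 65.8 with the control microRNA (-0.94).

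Glucocorticoids also switch on metallothionein genes, so 8 glucocorticoid responsive genes were described. In activated against quiescent libraries 1 was higher and 6 were lower (median -0.87), among them Sgk1 (-3.86), Zbtb16 (-2.25) and Dusp1 (-1.85). With miR-15a against the control microRNA 2 rose and 2 fell (median 0.00). Sgk1 rose (0.84), and Fkbp5, a standard marker of glucocorticoid receptor activity, fell to 204 ± 5.66 with miR-15a, against 294 ± 11.3 with the control microRNA (-0.52, adjusted p = 0.026).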
